A study of Mus musculus with 6 samples.

Results

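The heat shock and chaperone genes described here are 10 genes of the mouse, Hspa1a, Hspa1b, Hspb1, Hsph1, Dnajb1, Hsp90aa1, Hspa8, Hspe1, Hspd1 and Hspa5. They were chosen by gene name, with no measured value in the rule, and are 10 of the 56941 genes in the count table. All 10 passed the filter on low counts, as did 32149 genes in all. RNA was measured in cells labelled as hair follicle stem cells (HFSCs), which are the resident stem cells of the follicle bulge. The cells were sorted by FACS with antibodies to CD34 and α6-integrin from dorsal skin of female mice at postnatal day 68 (PD68). The 2 groups had 3 biological replicates each. WT mice were K14 Cre- Dab2fl/fl and Dab2-cKO mice were K14 Cre+ Dab2fl/fl, of the strain labelled B6;129S4-Dab2tm1Cpr/J, so both genotypes carried the floxed alleles of Dab2, an endocytic adaptor. Mice of both genotypes were given tamoxifen at 75 mg/kg per day on 5 consecutive days, which activates the Cre, and the K14 promoter drives it in basal keratinocytes of the epidermis and follicle. Dorsal skin was kept overnight in the cold in 0.25% trypsin and then incubated warm with fresh trypsin before the sort. The comparison asks how RNA levels in these sorted cells differ between the genotypes.

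Heat shock proteins are chaperones, which bind unfolded proteins and help them fold or pass them on for degradation. HSP70 proteins do this in cycles of ATP hydrolysis that are started by J-domain proteins and reset by nucleotide exchange factors such as the HSP110 proteins, and they hand some clients on to HSP90. Some of the genes are expressed in every cell at rest, and others are switched on by heat, proteotoxic stress or tissue handling through heat shock factor 1, which binds repeats of the 5-base unit NGAAN. Mitochondria and the endoplasmic reticulum (ER) each hold their own set, and the ER set answers to the unfolded protein response.

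Before the members, the targeted gene and the libraries were checked. Dab2 went against the labels. Its mean rose from 327 ± 15.4 normalized counts (SD, n = 3) under the WT label to 1375 ± 68.2 (n = 3) under the Dab2-cKO label, a log2 fold change of 2.07 ± 0.08 (SE). The table counts reads over the whole gene and does not show the floxed part by itself. The deposited columns of the second group are named FL-FL, and they were taken as Dab2-cKO because the series title equates the terms. Fibroblast, endothelial and immune markers were higher in the same libraries, as given below, and their part in the Dab2 counts was not tested. Whether the columns were exchanged was not tested either, and a swap would turn every direction given here. Every direction below therefore runs from the libraries labelled WT to the libraries labelled Dab2-cKO. Totals were 7040032 to 11696457 counts per library. Mitochondrially encoded genes took 13.0% to 14.4% of counts in WT and 19.1% to 20.3% in Dab2-cKO, and rRNA genes took 15.3% to 16.9% and 22.3% to 24.2%. All 11 HFSC and basal markers were detected, 7 of them called higher in Dab2-cKO and 3 lower. In normalized counts, Cd34 (510.4 and 1780), Itga6 (959.6 and 1409), Krt14 (6378 and 11470) and Krt15 (3556 and 6351) were higher, and Lhx2 (348 and 129), Sox9 (966 and 355) and Lgr5 (414 and 167), named after their values were seen, were lower. The markers of other cells differed as well, and no listed marker was at 0 in all libraries. In WT, summed normalized counts were 21070 to 24150 for the HFSC and basal genes. They were 240800 to 289400 for hair shaft and 102100 to 123500 for fibroblast genes. In Dab2-cKO they were 35890 to 36740, 2511 to 2675 and 356300 to 376100, and 143300 to 147500 for skeletal muscle genes. Endothelial, immune, melanocyte and erythrocyte sums were below the HFSC and basal sum in both groups. Called lower in Dab2-cKO were 15 of 15 proliferation genes, 14 of 14 hair shaft and inner root sheath genes and 7 of 8 melanocyte genes. Also lower were 2 of 11 differentiated epidermis genes. Called higher were 8 of 8 fibroblast, 8 of 8 endothelial, 8 of 10 immune, 8 of 8 skeletal muscle, 5 of 5 erythrocyte, 8 of 11 differentiated epidermis and 12 of 14 immediate early genes. In bulk samples, fewer cells of a type and less RNA per cell cannot be told apart.

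The sequences around the members' start sites were searched for known elements. Heat shock factors bind the heat shock element, here searched as GAANNTTC or TTCNNGAA, which are 2 units of 5 bases facing each other, and each of the 2 patterns reads the same on both strands. In the window from 250 bases before to 50 bases after the start of the annotated principal transcript, 7 of the 10 members held it, against 14.3% of 21667 promoters of protein-coding genes. The 3 without it in this window were Hsp90aa1, Hspa8 and Hspa5. With 3 units in a row, 2 members matched, against 0.475% of promoters. The sequences below are the 150 bases just before the start, in the direction of transcription, read from GRCm39 with its GENCODE annotation, and the capitals mark the element. They are shown for members that rose and for Hsph1, which holds the element and fell. Of the other members that hold it, Dnajb1 rose, Hspd1 fell and Hspe1 was not called. Hspa1a lies at chr17:35191133-35191282 on the minus strand, Hspa1b at chr17:35178215-35178364 on the minus strand, Hspb1 at chr5:135916610-135916759 on the plus strand and Hsph1 at chr5:149559807-149559956 on the minus strand.
Hspa1a: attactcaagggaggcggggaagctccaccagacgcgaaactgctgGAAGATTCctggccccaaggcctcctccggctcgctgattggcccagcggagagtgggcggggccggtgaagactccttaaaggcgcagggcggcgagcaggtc
Hspa1b: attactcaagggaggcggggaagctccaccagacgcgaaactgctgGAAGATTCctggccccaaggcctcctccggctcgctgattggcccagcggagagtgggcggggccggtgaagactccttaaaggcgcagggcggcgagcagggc
Hspb1: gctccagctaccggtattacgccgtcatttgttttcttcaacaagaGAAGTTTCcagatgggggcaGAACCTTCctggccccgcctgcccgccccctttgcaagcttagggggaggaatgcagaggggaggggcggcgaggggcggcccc
Hsph1: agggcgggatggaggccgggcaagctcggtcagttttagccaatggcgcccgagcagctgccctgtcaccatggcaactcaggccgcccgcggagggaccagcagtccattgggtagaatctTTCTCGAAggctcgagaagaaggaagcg

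The Hspa1a and Hspa1b sequences differ at 1 of these 150 bases, and at 4 of 300 over the whole window. Both hold GAAGATTC with its first base 104 bases before the start. Hspb1 holds elements at 104 and 84 bases before the start, and Hsph1 holds elements at 28 before and 42 after it. The match of Dnajb1 begins 29 bases into the transcript and is not shown.

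Hspd1 and Hspe1 are transcribed away from each other from starts 108 bases apart, and the 107 bases between them are the only stretch among the members with 3 or more alternating units in a row. They are shown at chr1:55127184-55127290 on the strand of Hspe1, with the run of units in capitals, because the same stretch lies before 1 gene that fell and 1 that was not called.
Hspd1 to Hspe1: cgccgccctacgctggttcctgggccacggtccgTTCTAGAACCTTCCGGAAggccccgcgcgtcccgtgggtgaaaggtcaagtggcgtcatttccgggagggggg

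Hspa5 carries another element, the ER stress element CCAAT, 9 bases, CCACG, searched on both strands, which 0.125% of promoters hold and no other member does. It is shown in capitals at chr2:34661954-34662103 on the plus strand, with its first base 67 bases before the start. A match of letters is a description and does not show binding.
Hspa5: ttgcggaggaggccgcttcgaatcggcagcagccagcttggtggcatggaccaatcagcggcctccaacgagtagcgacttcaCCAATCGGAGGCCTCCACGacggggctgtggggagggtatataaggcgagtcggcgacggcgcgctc

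Of the 10 genes, 4 rose in Dab2-cKO (Hspa1a, Hspa1b, Dnajb1 and Hspb1), 5 fell (Hsp90aa1, Hspd1, Hsph1, Hspa8 and Hspa5), and Hspe1 was not called. The call was an adjusted p under 0.05 from the quasi-likelihood test of edgeR over all genes. By that rule, 16.8% of all genes tested were higher and 11.5% lower. Among genes with a mean of at least 100 normalized counts, as all the members had, 37.6% were higher and 22.8% lower. The median log2 fold change was -0.14 over the members and -0.02 over all genes tested. The split of calls moved with the scaling. Of the calls over all genes, 59.4% were higher here, 43.5% with upper-quartile factors and 19.4% with library size only, which moves the median log2 fold change of all genes to -0.45. The members were 4 higher and 5 lower with upper-quartile factors, and 3 higher and 6 lower with library size only. In 9 of the 10 genes the groups did not overlap, 4 higher and 5 lower, and over all genes tested 20.6% were higher and 17.7% lower without overlap. With 3 against 3 the exact two-sided permutation test cannot go below p = 0.1, its value for each of the 9. Normalized counts are the counts scaled to a common effective library size. Their coefficient of variation among replicates was 2.12% to 12.9% for the members in WT and 2.6% to 14.9% in Dab2-cKO, against medians of 8.21% and 7.0% over all genes with a mean of at least 100 normalized counts.

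**Figure D1:**
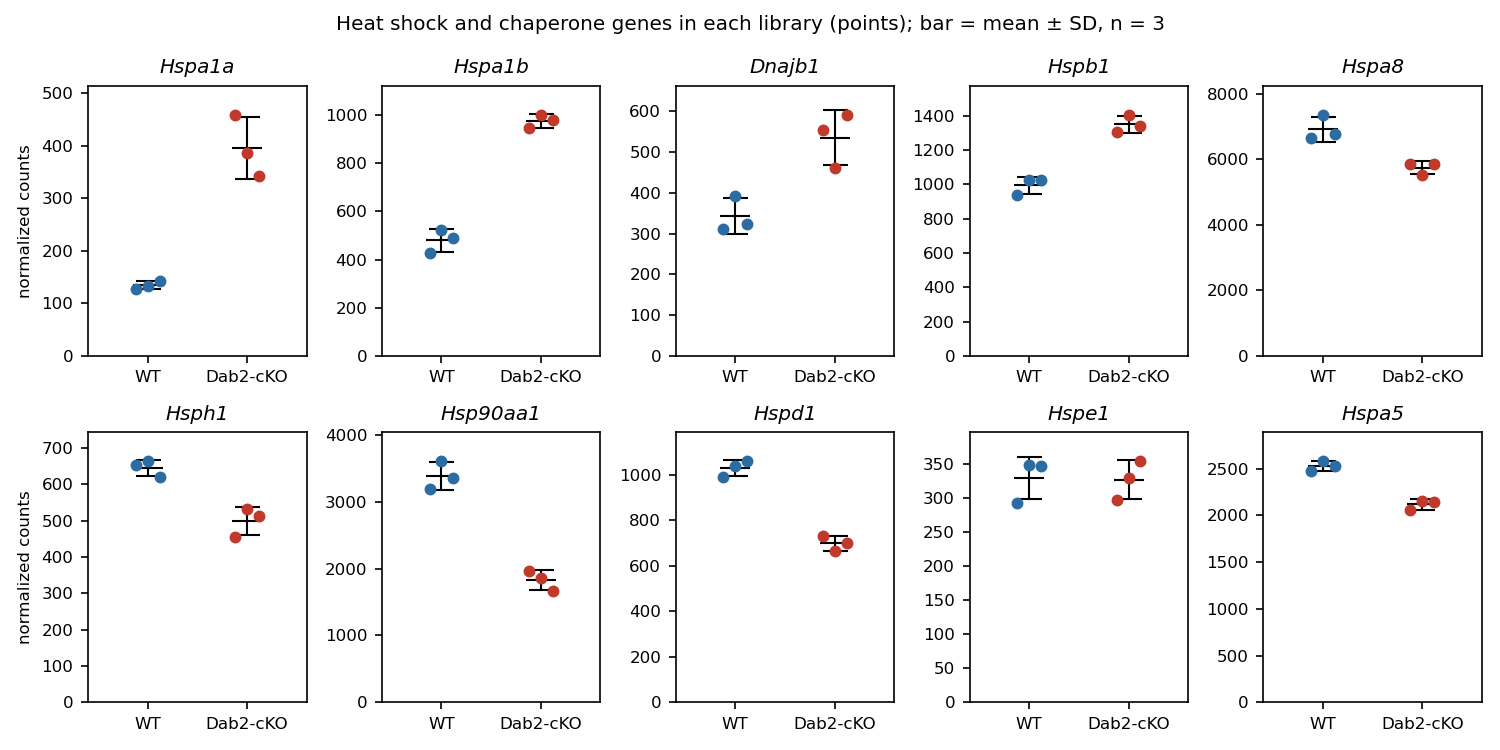
Normalized counts (vertical axes, from 0) of each of the 10 genes in the 3 libraries labelled WT (blue) and the 3 labelled Dab2-cKO (red), with the mean and SD as bars. The points of the groups overlap for Hspe1 only, and Hspa1a shows the largest fold, from 134 to 396.

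Hspa1a and Hspa1b encode the stress-inducible HSP70 of the cytosol. They were the members that rose most. Both are genes of 1 exon on the minus strand of chromosome 17, at chr17:35188166-35191132 and chr17:35175412-35178214, with starts 12918 bases apart. Hspa1a had 127, 134 and 143 normalized counts in WT and 459, 387 and 342 in Dab2-cKO. The lowest Dab2-cKO library stood far above the highest WT library. The means of 134 ± 7.91 and 396 ± 58.8 (SD, n = 3) gave a log2 fold change of 1.56 ± 0.12 (SE, adjusted p = 1.34e-18), or 2.94-fold, and 2.64% of the genes tested had a larger rise. Hspa1b had 428, 522 and 489 in WT and 945, 999.9 and 980.1 in Dab2-cKO. All Dab2-cKO libraries were higher, and the means of 479 ± 47.8 and 975 ± 27.8 gave a log2 fold change of 1.02 ± 0.08 (adjusted p = 4.71e-18), or 2.03-fold.

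The transcripts of these 2 genes are 92.5% identical over 2735 aligned bases, and 48.0% of the 96-base windows of Hspa1a occur exactly in Hspa1b, so the division of reads between them is uncertain. Their sum does not depend on it. It was 554, 655 and 631 normalized counts in WT and 1404, 1387 and 1322 in Dab2-cKO, with a log2 fold change of 1.16 ± 0.08 (adjusted p = 9.21e-22), or 2.23-fold. Hspa1a took 20.4% to 22.9% of the summed counts in WT and 25.9% to 32.7% in Dab2-cKO. An antisense lncRNA, Gm20481, covers 19.01% of the exons of Hspa1a, and the strand setting of the counting is not given in the sources used here.

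Dnajb1 encodes HSP40, the J-domain partner that starts the ATPase cycle of inducible HSP70. It had 312, 394 and 324 normalized counts in WT and 554, 461 and 592 in Dab2-cKO. The replicates of both groups were spread, but the lowest Dab2-cKO library was above the highest WT library. The log2 fold change was 0.64 ± 0.10 (adjusted p = 8.96e-08), or 1.56-fold. Dnajb1 lies at chr8:84334811-84339820, shares no exon with another gene, and none of its windows recur elsewhere in the genome.

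Hspb1 encodes HSP27, a small heat shock protein that holds unfolded proteins without using ATP and that is expressed in keratinocytes. It had 936, 1023 and 1024 normalized counts in WT and 1307, 1404 and 1337 in Dab2-cKO. The groups were well apart, and the rise was small, with a log2 fold change of 0.44 ± 0.07 (adjusted p = 5.27e-07), or 1.36-fold. With library size only, the difference of Hspb1 was 0.01 (adjusted p = 0.886). Its processed pseudogene Hsp25-ps1 holds 55.7% of its windows exactly but had only 3 to 5 counts per library. Summing Hspb1 and Hsp25-ps1 left the log2 fold change at 0.44. Gm58342, annotated over part of Hsp25-ps1 on the opposite strand, holds 40.8% of the Hspb1 windows and was not added.

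The 12 of 14 immediate early genes called higher, which tissue dissociation is known to switch on, moved with these 4 genes. The summed level of all 14 ran from 4427 to 4931 normalized counts in WT and from 13210 to 13440 in Dab2-cKO, and Fos rose from 333 ± 26.8 to 2427 ± 43.6 (log2 fold change 2.87 ± 0.08, adjusted p = 3.74e-43). Their part in the rise of Hspa1a, Hspa1b, Dnajb1 and Hspb1 was not tested.

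Hsp90aa1 encodes the stress-inducible form of cytosolic HSP90, which matures kinases and steroid receptors. It fell the most of the members. It had 3193, 3600 and 3348 normalized counts in WT and 1959, 1863 and 1670 in Dab2-cKO. Every Dab2-cKO library was well under every WT library, and the log2 fold change was -0.88 ± 0.07 (adjusted p = 2.42e-17), or 0.542 of the WT level, and 6.7% of the genes tested had a larger fall. Hsp90aa1, at chr12:110656842-110669166 went the opposite way from Dnajb1 and the Hspa1 pair. The ratio of Dnajb1 to Hsp90aa1 counts, which needs no scaling between libraries, was 0.0976, 0.109 and 0.0967 in WT and 0.283, 0.248 and 0.354 in Dab2-cKO. Its processed pseudogenes Gm12346 and Gm5844 hold 40.3% and 21.3% of its windows, and with both added the log2 fold change was -0.84 ± 0.07 (adjusted p = 1.295e-16).

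Hsph1 encodes HSP105, an HSP110 protein that exchanges the nucleotide of HSP70. It had 654, 664 and 621 normalized counts in WT and 456, 532 and 512 in Dab2-cKO. The groups were apart, with a log2 fold change of -0.37 ± 0.08 (adjusted p = 0.000216), or 0.773 of the WT level. None of its windows recur in the genome, and antisense lncRNAs cover 11.2% of its exons. Hsph1, at chr5:149537636-149560156, fell while the inducible HSP70 genes and Dnajb1 rose.

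Hspa8 encodes HSC70, the HSP70 of unstressed cells, which also strips clathrin from vesicles. It had 6649, 7353 and 6759 normalized counts in WT and 5848, 5532 and 5862 in Dab2-cKO. Each Dab2-cKO library lay under each WT library, at a log2 fold change of -0.27 ± 0.07 (adjusted p = 0.00103), or 0.831 of the WT level. The fall was not called once the counts of its pseudogenes were added. Gm15459, a processed pseudogene at chr5:5831615-5833555 on the minus strand, holds 59.8% of the 96-base windows of Hspa8 exactly, and it was singled out after its values were seen. Gm15459 had 94.6, 73.1 and 79.5 normalized counts in WT and 1152, 1258 and 1179 in Dab2-cKO. That is a log2 fold change of 3.87 ± 0.10 (adjusted p = 1.62e-44), or 14.6-fold. A further processed pseudogene, Gm8355, holds 30.2% of the windows and had 69.5 ± 6.34 and 75.1 ± 6.65 normalized counts. Hspa8 and both copies together came to 6811, 7503 and 6903 in WT and 7068, 6867 and 7121 in Dab2-cKO. These sums overlapped, and the difference was no longer called, with a log2 fold change of -0.01 ± 0.07 (adjusted p = 0.938, 95% confidence interval -0.15 to 0.12). The sum was tried after the data were seen. Which of the genes the reads of Gm15459 came from was not tested, and the handling of reads that map to several places is not given in the sources used here.

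**Figure D2:**
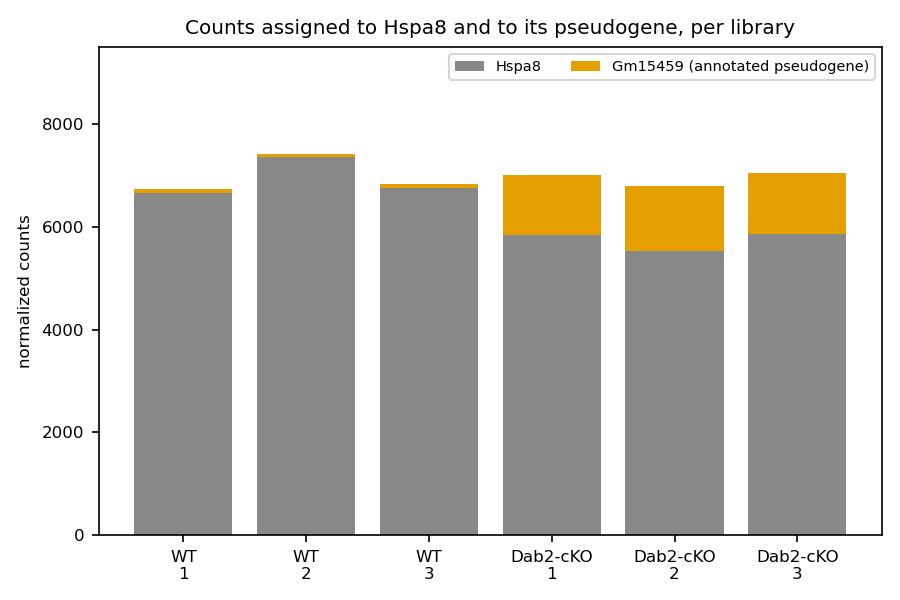
Normalized counts (vertical axis, from 0) assigned to Hspa8 (grey) and to its processed pseudogene Gm15459 (orange, stacked) in each library. The orange part is 73.1 to 94.6 in the libraries labelled WT and 1152 to 1258 in those labelled Dab2-cKO, while the stacked heights of the groups overlap.

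The pseudogene counts also bear on the ratio of inducible to resting HSP70. Counts of Hspa1a plus Hspa1b were 0.0834, 0.0891 and 0.0934 of those of Hspa8 in WT and 0.24, 0.251 and 0.226 in Dab2-cKO, a 2.69-fold higher ratio. Against Hspa8 with its copies, the ratios were 0.0814 to 0.0915 and 0.186 to 0.202, which is 2.25-fold. The groups were apart either way (exact permutation p = 0.1, the smallest possible).

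Hspd1 and Hspe1 encode HSP60 and HSP10, the barrel and the lid of the mitochondrial chaperonin. The first fell and the second was not called. Hspd1, on the minus strand of chromosome 1, had 989, 1039 and 1058 normalized counts in WT and 729, 665 and 699 in Dab2-cKO. It was lower in every Dab2-cKO library, with a log2 fold change of -0.56 ± 0.08 (adjusted p = 3.11e-09), or 0.678 of the WT level. Hspe1, at chr1:55127260-55130476 on the plus strand, had 294, 348 and 347 in WT and 298, 330.2 and 354 in Dab2-cKO. Its groups overlapped fully, and its log2 fold change of -0.02 ± 0.10 (adjusted p = 0.939) had a 95% confidence interval of -0.22 to 0.19.

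The counts of Hspe1 per count of Hspd1 were 0.297, 0.335 and 0.328 in WT and 0.408, 0.496 and 0.507 in Dab2-cKO. The ratio did not overlap between the groups (exact permutation p = 0.1) and was 1.47-fold higher in Dab2-cKO. Exons of the pair overlap on opposite strands over 8.03% of Hspe1 and 3.83% of Hspd1. With its pseudogene Hspd1-ps3 added, the log2 fold change of Hspd1 was -0.57. Mitochondrially encoded genes, by contrast, took a larger share of counts in Dab2-cKO, as given above, and their part in the values of Hspd1 and Hspe1 was not tested.

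Hspa5 encodes BiP, the HSP70 of the ER and the sensor partner of the unfolded protein response. It had 2471, 2577 and 2527 normalized counts in WT and 2054, 2153 and 2146 in Dab2-cKO. The coefficient of variation among replicates was 2.12% in WT and 2.6% in Dab2-cKO. The fall was small, with a log2 fold change of -0.25 ± 0.07 (adjusted p = 0.00229), or 0.838 of the WT level. Hspa5 has no copy in the genome by these windows, but exons of Rabepk on the opposite strand cover 44.2% of its exon length.

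Levels of different genes are compared per kb of exon. In normalized counts per kb, Hspb1 was highest in WT (952 ± 48.0), followed by Hspa8 (797 ± 43.6) and Hsp90aa1 (734 ± 44.6), whose libraries overlapped each other. Then came Hspa5 (455 ± 9.62), Hspd1 (276 ± 9.58), Hspe1 (185 ± 17.4) and Hspa1b (171 ± 17.1), the last 2 overlapping. Dnajb1 (91.1 ± 11.7), Hsph1 (58.1 ± 1.99) and Hspa1a (45.3 ± 2.67) were lowest and apart from each other. All stood above the median of 4.94 normalized counts per kb over 1526 odorant and pheromone receptor genes, taken as background, and in WT they stood at percentiles 75.3 (Hspa1a) to 99.4 (Hspb1) among 19501 protein-coding genes tested. In Dab2-cKO, Hspb1 (1292 ± 47.3) and Hspa8 (662 ± 21.5) kept the first places. Hsp90aa1 (398 ± 31.96) now overlapped with Hspa5 (381 ± 9.91), and Hspa1b (348 ± 9.91) had passed Hspd1 (187 ± 8.64) and Hspe1 (184 ± 16.0), which overlapped. Hspa1a (133 ± 19.8) overlapped with Dnajb1 (142 ± 17.8), and Hsph1 (45.0 ± 3.54) was last. Of the windows of Hspa1a, 49.5% recur elsewhere in the genome, of Hspa1b 50.85%, of Hspb1 62.2% and of Hspa8 64.6%. The shares were 57.3% for Hsp90aa1, 35.8% for Hspd1 and 20.9% for Hspe1, but no window of Hsph1, Dnajb1 or Hspa5 recurs. How reads with several matches were handled is not given, and its effect on the order was not tested. The order depended on the length used. Per kb of the longest transcript in place of all exons, Hspa8 (1528) stood above Hspb1 (954) in WT. Hspe1 (342) then stood above Hspd1 (310), with overlapping libraries, and clear of Hspa1b (171), and Hsph1 (104) overlapped with Dnajb1 (96.9). In Dab2-cKO, Hspe1 (339.6) then overlapped with Hspa1b (348) and stood clear of Hspd1 (210.1).

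**Figure D3:**
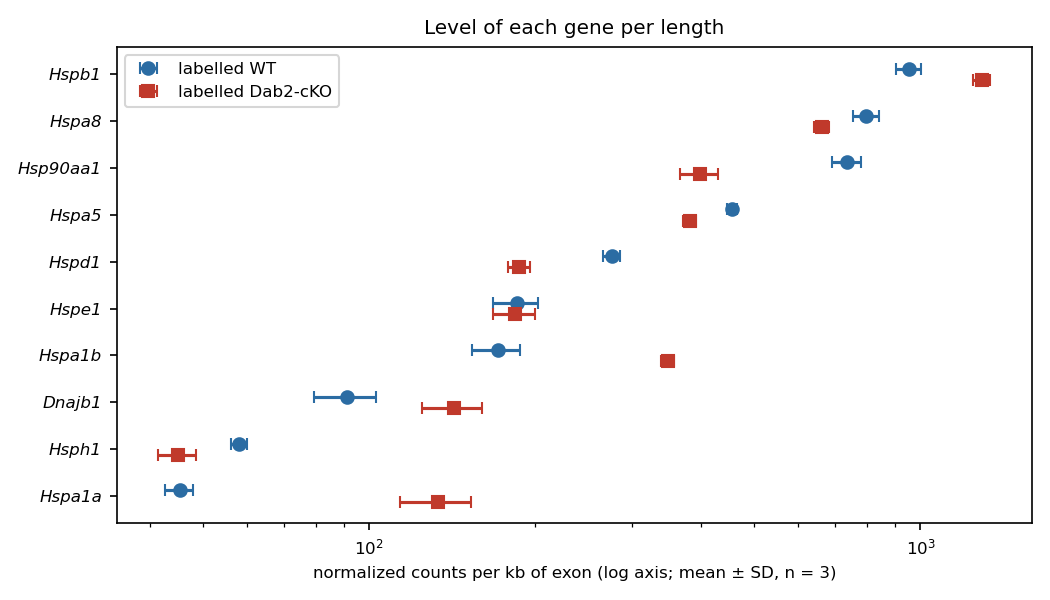
Normalized counts per kb of exon (horizontal axis, log scale) of the 10 genes in the libraries labelled WT (blue circles) and Dab2-cKO (red squares), as mean and SD of 3 libraries, ordered by the WT level. Hspa1a and Hspa1b lie furthest to the right of their WT level, at 133 against 45.3 and at 348 against 171, and Hsp90aa1 furthest to the left, at 398 against 734.

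The rest of the network was followed in lists that hold 108 other genes, of which 106 were in the table and 105 were tested. Of these, 30 were higher, 25 lower and 50 not called, with a median log2 fold change of 0.06 against -0.02 over all genes tested. Of the 93 with a mean of at least 100 normalized counts, 31.2% were higher and 24.7% lower, against the 37.6% and 22.8% of all genes at that level, so the lists as a whole were near the background. The same shares stand behind the count of each list below, where few genes make each share coarse. The list counts cover all genes tested, also those under that level. Over all genes tested the shares were 16.8% higher and 11.5% lower. The called list genes under that level were Hspb2, which rose, and Cryaa and Bag2, which fell. With library size only, 14 of the 105 were higher and 64 lower. Of the heat shock factors, Hsf1, the main switch of the response, had 198, 226 and 203 normalized counts in WT and 198, 198 and 202 in Dab2-cKO (log2 fold change -0.07, adjusted p = 0.754). Hsf1 was called lower with library size only (-0.50, adjusted p = 0.000393). Hsf2 rose from 216 ± 19.3 to 366 ± 51.0 (log2 fold change 0.76 ± 0.11, adjusted p = 3.26e-08). Hsf4 had 46.3 ± 8.52 and 47.7 ± 1.79 (log2 fold change 0.04, adjusted p = 0.939).

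Among the partners of HSP70, 7 of 14 other J-domain genes were higher and 2 lower (median log2 fold change 0.20, background 37.6% and 22.8%), which turned to 3 higher and 8 lower with library size only. The most changed were Dnaja4, which rose from 151 ± 11.1 to 489 ± 28.2 normalized counts (log2 fold change 1.69), Dnajb5 (122 to 283, 1.20) and Dnajb4 (239 to 518, 1.11). Of the HSP70 co-factors, 5 of 9 were higher and 1 lower (median 0.27), or 2 and 3 with library size only. Bag3, a heat-inducible nucleotide exchange factor, rose from 316 ± 62.4 to 531 ± 41.9 (log2 fold change 0.74), Bag1, another exchange factor, by 0.68 and Stub1, the ubiquitin ligase CHIP, by 0.61, though Stub1 was not called with library size only (0.18, adjusted p = 0.168). The other HSP70 and HSP110 genes split, with 2 of 7 tested higher and 3 lower (median -0.14). Hspa2, best known from the testis, fell from 548 ± 15.7 to 175 ± 14.9 (log2 fold change -1.65), Hspa14 fell by 0.95 on the log2 scale, and Hspa12b, known from endothelial cells, rose by 0.98.

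In the HSP90 list, 0 of 12 genes were higher by edgeR, by DESeq2 or at an unadjusted p under 0.05, and 5 were lower (median -0.18), or 12 with library size only. Unc45a, a myosin chaperone, fell from 702 ± 72.5 to 517 ± 30.9 (log2 fold change -0.44), Ptges3, the p23 co-chaperone, from 1451 ± 87.4 to 1092 ± 35.9 (-0.41), and Stip1, which links HSP70 to HSP90, from 641 ± 49.6 to 489 ± 34.9 (-0.39). Hsp90ab1, the constitutive HSP90 and named here after its values were seen, had 10880 and 10890 normalized counts on average (log2 fold change 0.00, adjusted p = 0.993). The TRiC chaperonin and prefoldin, which fold actin and tubulin, had 7 of 14 genes lower and 1 higher (median -0.12), or 8 and 1 with library size only. All 7 that fell were subunits of TRiC, among them Cct6a (1203 ± 40.4 to 768 ± 43.7, log2 fold change -0.65) and Cct7 (1182 ± 106 to 774 ± 29.6, -0.61), and the 1 that rose was the prefoldin subunit Pfdn5 (455 ± 11.98 to 801 ± 26.1, 0.82). The 15 proliferation genes were all lower too, while 7 of the 12 genes of the HSP90 list and 6 of the 14 of TRiC and prefoldin were not called. The summed level of the proliferation genes was 12470 to 13610 normalized counts in WT and 4270 to 4371 in Dab2-cKO, and Mki67 had a log2 fold change of -2.12. Their part in the lower HSP90 and TRiC genes was not tested. Nor was that of the hair shaft genes, whose sum went from 240800 to 289400 down to 2511 to 2675, with Tchh at -6.74.

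The other small heat shock genes had the largest median of the 10 lists, 1.19, with 5 of 8 higher and 1 lower, or 4 and 1 with library size only. Hspb7 rose from 111 ± 10.6 to 668 ± 33.6 normalized counts (log2 fold change 2.59), Hspb6 from 220.1 ± 4.35 to 923 ± 21.99 (2.07) and Cryab, αB-crystallin, from 223 ± 8.69 to 926 ± 55.3 (2.05). These 3 are known for high levels in muscle. The 8 of 8 skeletal muscle markers rose with them, their sum going from 25540 to 29560 in WT to 143300 to 147500 in Dab2-cKO. The 8 of 8 fibroblast markers rose too, from 102100 to 123500 up to 356300 to 376100. The summed level of 8 endothelial markers went from 1157 to 1376 up to 4442 to 4460, that of 10 immune markers from 2046 to 2244 up to 8827 to 9001, and that of 5 erythrocyte genes from 244 to 274 up to 1467 to 1601. The part of any of these in the small heat shock genes was not tested. The sums of epidermal markers were 27180 to 31140 and 83940 to 84410 for 11 differentiated epidermis genes. Of these, 8 were higher, among them Krt10 at a log2 fold change of 2.37, and 2 were lower. The sums were 21070 to 24150 and 35890 to 36740 for 11 HFSC and basal genes, of which 7 were higher and 3 lower. Melanocyte genes summed to 3496 to 3831 and 1235 to 1274.

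In the mitochondria, 11 of the 13 other chaperones and proteases were not called, and 2 were lower (median 0.06), or 11 with library size only. None was called higher by edgeR or DESeq2, and 2 were higher at an unadjusted p under 0.05. The 2 lower genes were Grpel2, an exchange factor for mitochondrial HSP70 (349 ± 21.3 to 235 ± 10.6, log2 fold change -0.57), and Yme1l1, a protease of the inner membrane (-0.28). Hspa9, the mitochondrial HSP70 itself and named after its values were seen, had a log2 fold change of 0.06 (adjusted p = 0.608). In the ER, 4 of 16 other chaperones and folding enzymes were higher and 4 lower (median -0.03), or 0 and 13 with library size only. Hyou1, the HSP110 of the ER, fell from 702 ± 64.3 to 525 ± 46.0 (-0.42) and Pdia4 from 1255 ± 139 to 994 ± 25.6 (-0.34), both in the direction of Hspa5, while Dnajb9, a J-domain co-factor of BiP, rose from 132 ± 20.9 to 188 ± 17.6 (0.51). Of the regulators of the unfolded protein response, 5 of 9 were higher (median 0.31), and 0 were lower by edgeR, by DESeq2 or at an unadjusted p under 0.05. They were 2 higher and 3 lower with library size only. Herpud1, which serves ER-associated degradation, rose from 215 ± 14.03 to 462 ± 38.5 (log2 fold change 1.10), and Xbp1, a transcription factor of the response, from 491 ± 34.5 to 1030 ± 25.9 (1.07). Ddit3, which encodes CHOP, rose from 82.9 ± 14.1 to 124 ± 2.44 (0.58, adjusted p = 0.00534).

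**Figure D4:**
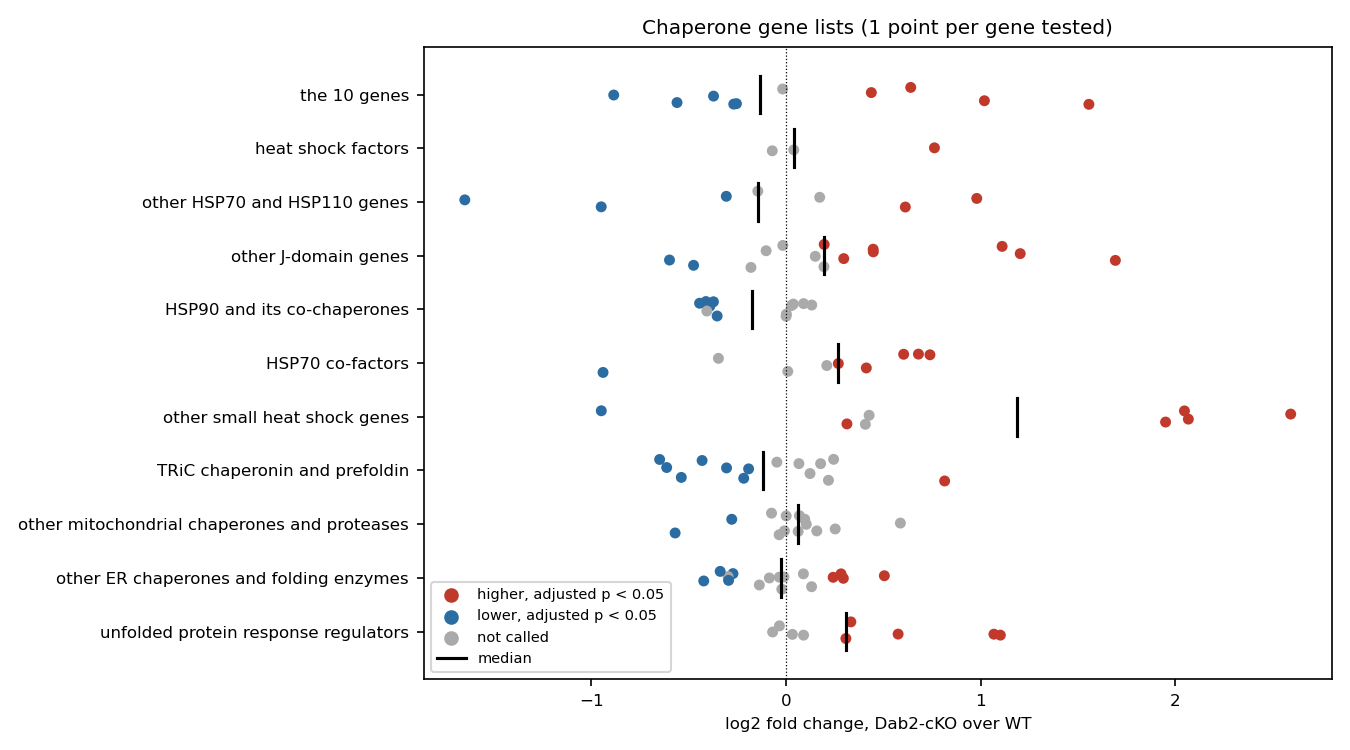
Log2 fold change between the genotypes, positive where Dab2-cKO was higher (horizontal axis), of the 10 genes and of each list of related genes, 1 point per gene tested, coloured by call at an adjusted p under 0.05, with the median of each list as a black bar. The small heat shock genes have the highest median at 1.19, and the HSP90 list, with a median of -0.18, has no gene called higher. With library size only, the calls over all lists are 14 higher and 64 lower in place of 30 and 25.

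Across the processing alternatives, Hspa1a gave log2 fold changes from 1.13 to 1.63, Hspa1b from 0.59 to 1.09 and Dnajb1 from 0.22 to 0.76. Hsp90aa1 stayed between -1.31 and -0.83. When tested against a 1.5-fold change in place of no change, Hspa1a, Hspa1b and Hsp90aa1 were still called, and the other members were not.

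**Figure D5:**
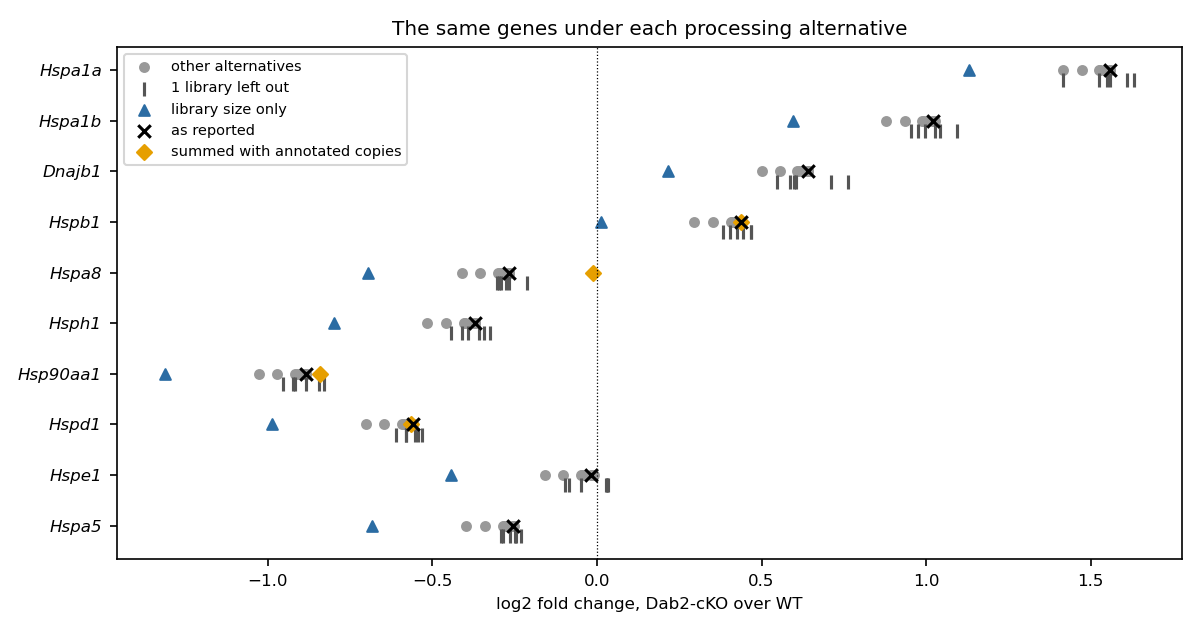
Log2 fold change between the genotypes, positive where Dab2-cKO was higher (horizontal axis), of the 10 genes as reported (cross) and under each alternative, with library size only as blue triangles, 1 library left out as ticks, and sums with annotated copies as orange diamonds. Library size only moves every gene to the left, Hspb1 to 0.01, and the sum with copies moves Hspa8 to -0.01.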

How the data were processed

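The authors made libraries from 5 ng of total RNA per sample with a stranded SMARTer pico-input kit for total RNA and used, per the labels, FastQC 0.11.9, fastp 0.23.4, HISAT2 2.2.1 on GRCm39, SAMtools 1.6 and featureCounts 2.0.6. The table deposited by the authors holds raw counts per gene and library. The strand setting, the annotation release, the handling of reads with several matches and any use of molecular identifiers are not given in the sources used here, so all spread and intervals cover the replicates or counting error only. A second deposited table, with the authors' fold changes, p-values and size-factor-scaled counts from DESeq2 1.42.0, was not used. The 10 genes and all lists were chosen with earlier results of these data known. Ero1a and Ero1b were not matched by symbol, and Hspa1l did not pass the filter. In the table, 6770 genes carry no gene name and stayed in the fit by their identifier.

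Counts were analysed in R 4.3.3 with edgeR 4.0.16, using filterByExpr, TMM factors (1.11 to 1.21 in WT, 0.847 to 0.876 in Dab2-cKO), the robust quasi-likelihood test over 32149 genes and Benjamini-Hochberg adjustment, called at 0.05. On simulated data the fit was tested with known fold changes, and the outcome is not given here. Log2 fold changes are those of this fit. A prior count of 2 was used only for the log values that compared samples with the same replicate number. Copies were sought as exact matches of 96-base windows of the principal transcript in GRCm39, with GENCODE M39. Processed pseudogenes holding at least 20% of a member's windows were added to it as an alternative. One such comparison is not reported here. Named were all 10 genes, the heat shock factors, Dab2, the 8 markers Krt14, Krt15, Cd34, Itga6, Mki67, Fos, Tchh and Krt10 and, of each other list, up to 3 called genes with the largest change and a mean of at least 100 normalized counts. The marker lists were HFSC and basal keratinocyte, immediate early, proliferation, hair shaft and inner root sheath, differentiated epidermis, fibroblast, endothelial, immune, melanocyte, skeletal muscle and erythrocyte genes. The alternatives were DESeq2, other scalings, other filters, a replicate block, 1 library left out and a test against a 1.5-fold change.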

Additional observations from a re-analysis of the deposited data

How the results depend on the processing

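With library size only, 2686 genes were higher and 11168 lower, the lists had 14 higher and 64 lower, and 2 members were higher without overlap. Upper-quartile factors gave 5561 genes lower. The test against a 1.5-fold change left 2222 genes higher and 1136 lower, 2 members higher and 1 lower, and 11 list genes higher and 2 lower. Leaving out 1 library gave 4800 to 5322 genes higher and 3091 to 3731 lower, and 4 members higher and 5 lower each time. Hsf4 turned to -0.10 with upper-quartile factors, -0.38 with library size only, and ran from -0.03999 (without WT replicate 1) to 0.211 (without WT replicate 2) with 1 library left out, with -0.0123 without WT replicate 3 and -0.00556 without Dab2-cKO replicate 1. Hspe1, called neither way, turned to 0.032 without WT replicate 2, 0.0284 without WT replicate 3 and 0.0333 without Dab2-cKO replicate 1. With library size only, Hspe1 (-0.44) and Hsf1 (-0.50) were called lower, and Hspb1 (0.01), Stub1 (0.18, adjusted p = 0.168), Ddit3 (0.15, adjusted p = 0.487) and Dnajb9 (0.08, adjusted p = 0.663) were not called. Ddit3 was also not called without WT replicate 1 (0.46, adjusted p = 0.0525), nor Dnajb9 without WT replicate 3 (0.40, adjusted p = 0.0521) or Dab2-cKO replicate 1 (0.41, adjusted p = 0.0538). Of these changes the cause was not tested. Samples with the same replicate number did not deviate together (r = 0.0731, -0.0143 and 0.0594 over 14798 genes), and with the number as a replicate block 5347 genes were higher and 3620 lower, with 4 and 5 members and 31 and 25 list genes. DESeq2 gave 4 and 5 members as well. Of 549 single-gene values under the alternatives, 510 kept their direction and side of the threshold, 29 lost a call, 2 gained one and 8 turned in sign.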
